A study of Mus musculus with 6 samples.

Results

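*Tnfsf11*, *Tnfrsf11b* and *Tnfrsf11a*, the genes of RANKL, OPG and RANK, were followed in mouse cortical bone treated with parathyroid hormone (PTH). The members were all probes whose gene symbol was one of these 3, and the array carried 1 probe for each, so that 3 of 45281 probes and 3 of 31508 gene symbols were taken (*Tnfsf11* ILMN_2505780, *Tnfrsf11b* ILMN_2513826, *Tnfrsf11a* ILMN_2482600). The samples were *ex vivo* bone tubes from the tibia and femur of C57BL6 mice, 3 months old by the labels, cut free of the epiphyses, flushed of marrow and digested with collagenase and trypsin to strip the bone surfaces. After a night in culture, the 3 control preparations (Ctr) were left untreated and the 3 PTH preparations (Pth) received 250 nM PTH 1-34, and both were frozen after 24 h. Each preparation pooled about 10 bones, with 4 to 5 mice per experiment. The labels do not say whether the 3 preparations of a group were separate cultures, or whether control and PTH preparations shared mice. The p-values therefore measure the spread between these preparations, which may be technical. Total RNA was measured on Illumina bead arrays, 1 per preparation.

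RANKL is a membrane-bound and shed cytokine of the TNF family that osteocytes, osteoblasts and other stromal cells present to osteoclast precursors. RANK is its receptor on those precursors, and signals through TRAF adaptors, NF-kappaB and MAP kinases to the osteoclast transcription factor NFATc1. OPG is a secreted decoy receptor from the stromal side that binds RANKL and keeps it from RANK. PTH is known to raise RANKL and lower OPG in cells of the osteoblast lineage, through its receptor, cAMP and protein kinase A.

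The ligand and the decoy moved in opposite directions by similar amounts. With PTH the *Tnfsf11* signal was 2.82-fold higher and the *Tnfrsf11b* signal 3.02-fold lower, and both passed the test. *Tnfrsf11a*, close to the array background, was 1.32-fold higher and did not pass. The ratio of ligand to decoy signal on an array was 8.51-fold higher with PTH. Under several other settings, given with each gene, the *Tnfsf11* difference kept its size but not its adjusted p-value, whereas *Tnfrsf11b* passed under every setting tried.

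*Tnfsf11* encodes the ligand, RANKL. Its deposited signal was 331, 361 and 571 units on control arrays 1, 2 and 3, and 873, 923 and 1608 units on PTH arrays 1, 2 and 3, where probes without target gave on average 105 to 121 units on an array. Control array 3 was the highest of its group and PTH array 3 the highest of all 6, and no PTH array overlapped the controls. After background correction and quantile normalization across arrays the log2 signal was 8.21, 8.02 and 8.93 in the controls and 9.91, 9.65 and 10.09 with PTH. The lowest PTH array lay 0.72 above the highest control on this scale, where groups apart in this direction were found in 11.1% of all genes. Normalization brought PTH array 3 close to PTH array 1, while control array 3 stayed apart from the other controls. The mean rose from 8.39 ± 0.48 (SD, n = 3) to 9.88 ± 0.22 (SD, n = 3), a log2 difference of 1.49 with a standard error of 0.25 and an adjusted p of 0.0298 by limma (Benjamini-Hochberg, over every tested probe). It was the 11th largest rise among 11979 genes tested, each represented by its brightest probe. A gene was called at an adjusted p below 0.05 with a change of at least 1.5-fold, which 1.73% of genes met, 0.685% of all genes as higher and 1.04% as lower. Of the genes called, 39.6% were higher, and 60.6% when arrays were scaled to a common median in place of quantile normalization, which moved the median log2 difference over all genes to 0.12. Relative to that median the differences of *Tnfsf11*, *Tnfrsf11b* and *Tnfrsf11a* were then 1.53, -1.57 and 0.37.

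The *Tnfsf11* probe was also among the more variable ones. Its SD within groups, pooled over both, was 0.37 on the log2 scale, at percentile 89.1 of all genes, where the median gene had 0.19. Any control subtracted from any PTH array gave a difference between 0.72 and 2.06. Leaving out control array 3 gave a log2 difference of 1.77 and an adjusted p of 0.0150 (limma). Leaving out control array 1 or 2, or PTH array 1, 2 or 3, gave log2 differences of 1.40, 1.31, 1.48, 1.61 and 1.39 and adjusted p-values of 0.114, 0.0990, 0.0960, 0.0796 and 0.109, so the call was lost without any 1 of these 5 arrays.

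*Tnfrsf11b* encodes OPG, the decoy receptor. Its deposited signal was 1850, 2662 and 2332 units on control arrays 1, 2 and 3, and 772, 923 and 1054 units on PTH arrays 1, 2 and 3. All 3 PTH arrays were below all 3 controls. The normalized log2 signal was 11.09, 11.33 and 11.14 in the controls and 9.71, 9.65 and 9.41 with PTH. On this scale the highest PTH array lay 1.38 below the lowest control, and groups apart in this direction were found in 10.8% of all genes. The mean fell from 11.19 ± 0.13 (SD, n = 3) to 9.59 ± 0.16 (SD, n = 3), a log2 difference of -1.60 with a standard error of 0.14 and an adjusted p of 0.00194 (limma). It was the 10th largest fall among the 11979 genes. The pooled SD was 0.14, at percentile 30.7 of all genes, and single array differences ran from -1.91 to -1.38. With any 1 array left out the log2 difference stayed between -1.65 and -1.51, with adjusted p-values of 0.00859 to 0.0150 (limma).

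**Figure D1:**
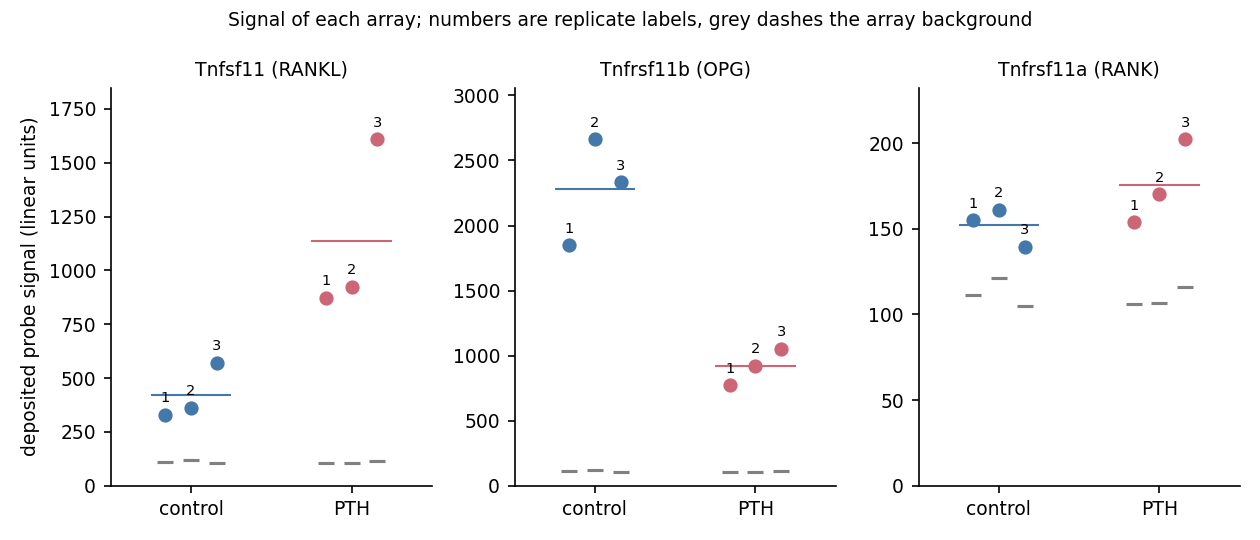
Deposited linear signal of the 1 probe of each gene on each of the 6 arrays (vertical axes start at 0 and differ between panels, numbers are replicate labels, lines are group means of 3 arrays, grey dashes are the mean background of that array). Control and PTH arrays are apart for *Tnfsf11* and *Tnfrsf11b*, while *Tnfrsf11a* lies at 140 to 202 units, near the background, with overlapping groups.

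*Tnfrsf11a* encodes RANK, the signalling receptor, which is known from osteoclast precursors and osteoclasts. Its deposited signal was 155, 161 and 140 units on control arrays 1, 2 and 3 and 154, 170 and 202 units on PTH arrays 1, 2 and 3. These groups overlapped. The detection p-value of the array software was 0.00107 on each control array and 0 on each PTH array, so the probe counted as above background on all 6, by 3.97 to 4.93 SDs of the background in the controls and 5.18 to 8.33 with PTH. The normalized log2 signal was 6.14, 5.81 and 5.65 in the controls and 6.28, 6.31 and 6.23 with PTH. On this scale the groups were apart by 0.08. Every PTH array lay above every control in 11.1% of all genes, and below in 10.8%.

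The mean *Tnfrsf11a* log2 signal was 5.87 ± 0.25 (SD, n = 3) in the controls and 6.27 ± 0.04 (SD, n = 3) with PTH. The log2 difference of 0.41 had a standard error of 0.15, an unadjusted p of 0.0303 and an adjusted p of 0.273 (limma), the 817th largest rise of 11979. The size of the difference moved with the treatment of the background and with single arrays. It was 0.16 without background correction and 0.54 with the background subtracted, and it was 0.29 without control array 3 and 0.54 without control array 1. Under none of these did it pass.

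Whether PTH changed the balance of ligand and decoy was followed within each array, as the log2 signal of *Tnfsf11* minus that of *Tnfrsf11b*. A scale factor common to an array cancels in this value. Its level mixes the brightness of 2 different probes, so that only its change between arrays is read. On control arrays 1, 2 and 3 it was -2.88, -3.30 and -2.21, and on PTH arrays 1, 2 and 3 it was 0.20, -0.00 and 0.67. The highest control and the lowest PTH array were 2.21 apart. The mean went from -2.80 ± 0.55 (SD, n = 3) to 0.29 ± 0.35 (SD, n = 3), a change of 3.09 with a standard error of 0.38. The exact permutation test over arrays, two-sided, gave p = 0.1, which is the smallest value that 3 against 3 arrays can give. The rise of *Tnfsf11* made up 48.4% of the log2 change and the fall of *Tnfrsf11b* 51.6%.

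The change in the ratio was also present without normalization between arrays. Taken from the deposited signals, with no correction at all, the ratio was 0.179, 0.136 and 0.245 on control arrays 1, 2 and 3 and 1.13, 1.00 and 1.53 on PTH arrays 1, 2 and 3, a 6.63-fold increase. With the background removed but no offset and no normalization the increase was 9.05-fold. With any 1 array left out the log2 change of the normalized ratio was between 2.84 and 3.38.

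**Figure D2:**
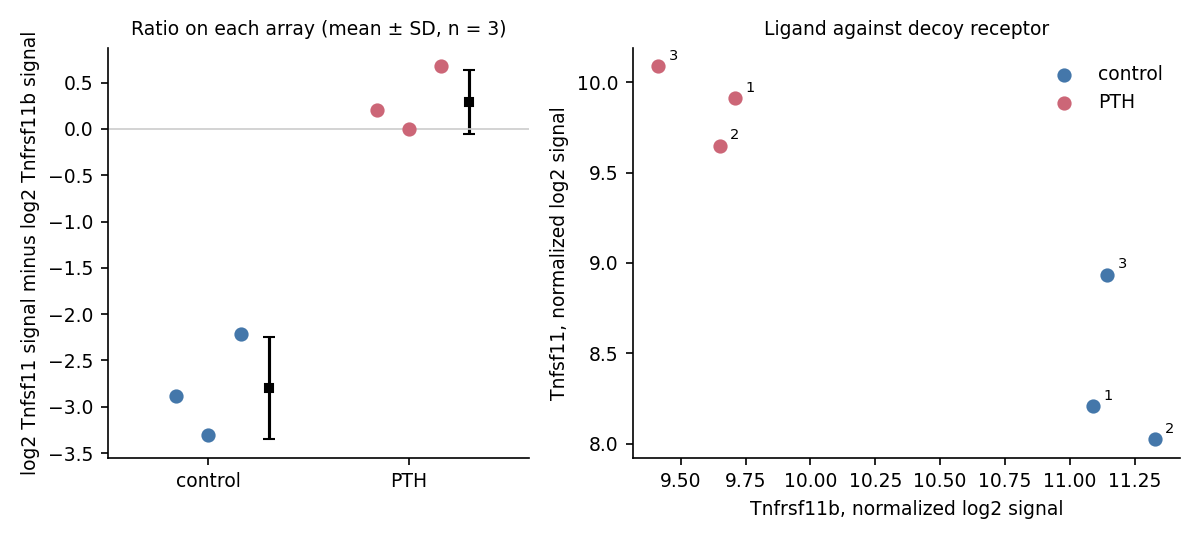
Left, log2 *Tnfsf11* signal minus log2 *Tnfrsf11b* signal on each array, with squares and bars for mean ± SD of 3 arrays. Right, the normalized log2 signals of both genes on the 6 arrays (numbers are replicate labels). The control arrays lie between -3.30 and -2.21 and the PTH arrays between -0.00 and 0.67, and on the right the controls lie lower for the ligand and higher for the decoy than the PTH arrays.

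**Figure D3:**
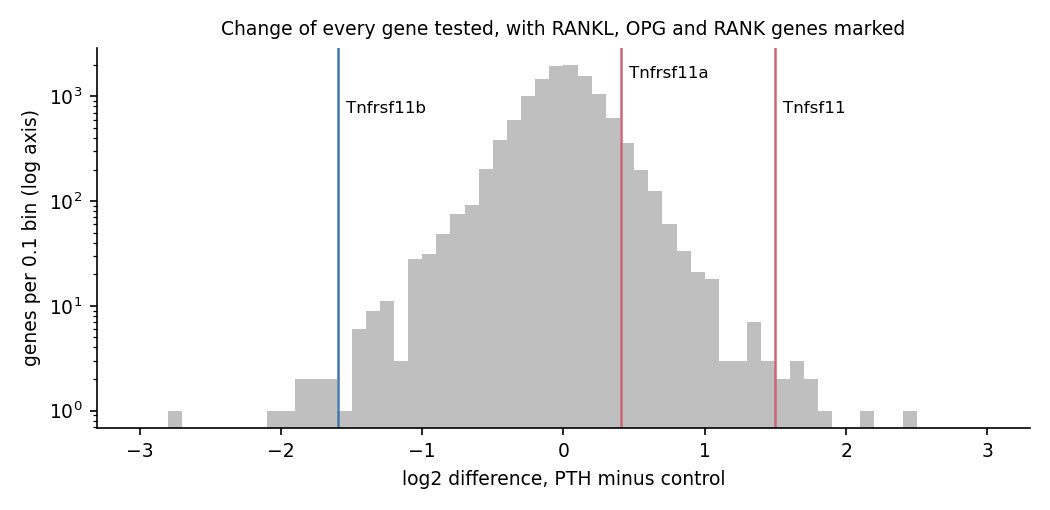
Number of genes (log axis) by log2 difference, PTH minus control, in bins of 0.1 over 11979 genes, with lines at the 3 genes. *Tnfsf11* at 1.49 and *Tnfrsf11b* at -1.60 lie in the thin tails, while *Tnfrsf11a* at 0.41 lies on the right shoulder.

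The DNA before the start sites is shown as a description, and its part in the changes with PTH was not tested. RefSeq windows (build GRCm38.p6) from 250 bases before to 50 after a start site were at hand for 2 of the 3 genes, *Tnfsf11* at chr14:78307994-78308293 on the minus strand and *Tnfrsf11a* at chr1:105780473-105780772 on the plus strand. They are printed 5′ to 3′ on the strand of the gene, with the matches described next in capitals.
Tnfsf11: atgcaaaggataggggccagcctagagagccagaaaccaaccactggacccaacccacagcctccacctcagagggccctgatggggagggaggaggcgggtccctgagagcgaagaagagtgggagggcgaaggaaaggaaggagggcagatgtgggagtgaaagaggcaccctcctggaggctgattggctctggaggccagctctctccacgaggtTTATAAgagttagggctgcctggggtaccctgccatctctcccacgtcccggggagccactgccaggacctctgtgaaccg
Tnfrsf11a: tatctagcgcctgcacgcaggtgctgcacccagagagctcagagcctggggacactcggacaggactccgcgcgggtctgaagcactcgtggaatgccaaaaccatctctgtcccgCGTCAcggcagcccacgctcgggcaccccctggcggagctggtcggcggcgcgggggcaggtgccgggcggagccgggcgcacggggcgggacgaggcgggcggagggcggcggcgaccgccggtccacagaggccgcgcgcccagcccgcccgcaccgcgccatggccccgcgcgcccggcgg

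4 motifs were searched on both strands: TGACGTCA, the palindrome bound by CREB, its shorter form TGACG, the TATA box core TATAA and the RUNX site TGTGGT. The *Tnfsf11* window held TATAA on each strand in 1 overlapping stretch that began 31 bases before the start, and neither CREB form nor the RUNX site. The *Tnfrsf11a* window held no TATAA and 1 match to TGACG, on the minus strand, which began 134 bases before the start and is printed as its reverse complement. Among 32851 such windows, 24.9% held TATAA, 20.8% TGACG, 1.79% TGACGTCA and 16.8% TGTGGT. The windows also differed in composition, with 61.7% GC and 7 CpG in *Tnfsf11* and 76.7% GC and 43 CpG in *Tnfrsf11a*, against a median of 52.7% and 7. A match is a description of letters in this window, and distal elements were not searched.

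The RNA came from whole bone, so fewer cells of a type and less RNA per cell cannot be told apart. The osteocyte markers *Dmp1*, *Mepe*, *Phex* and *Pdpn* were above background on all 6 arrays, *Sost* on all 3 control arrays and 1 PTH array, and *Fgf23* on no array. The bones had been digested to strip their surfaces, and whether any surface cells remained was not tested. All 5 osteoblast markers, which osteocytes also express to differing degrees, were above background on all 6 arrays. Their summed normalized signal was 26182 to 26944 units in the controls and 14914 to 15875 with PTH. Of the 5, 2 were called lower (*Ibsp* and *Sp7*), and 5 were lower and 0 higher at an unadjusted p below 0.05 (limma). At that level 7.51% of all genes were higher and 7.39% lower. For osteocytes the sum was 7427 to 8781 in the controls and 5999 to 7181 with PTH, with 1 of 5 tested called lower (*Mepe*) and none higher, and 4 lower and 1 higher at an unadjusted p below 0.05 (limma). The higher one was *Pdpn* (E11, Gp38 on the array), with a log2 difference of 0.70 and an adjusted p of 0.0560 (limma). Every PTH array of *Pdpn* lay above every control, as was the case in 11.1% of all genes. The 4 lower were *Dmp1* (-1.21), *Mepe* (-1.02), *Phex* (-0.88) and *Sost* (-1.21), so the osteocyte sum joins changes in both directions. For the osteoclast markers the sum was 11887 to 13332 in the controls and 16023 to 20509 with PTH, and which cells gave this signal was not tested. Of 4 tested, 2 were called higher (*Acp5* and *Mmp9*), and 4 were higher and 0 lower at an unadjusted p below 0.05 (limma). This sum rests mainly on *Ctsk* and *Mmp9*, with mean control log2 signals of 13.05 and 11.86, beside 7.09 for *Acp5* and 6.64 for *Dcstamp*. *Ctsk* was not called (log2 difference 0.36, adjusted p = 0.328, limma). *Calcr* and *Atp6v0d2* were above background on no array, and *Itgb3* on 1 control array. Macrophage markers gave 3476 to 3872 and 3353 to 3966 units, with 0 of 5 called (1 higher at an unadjusted p below 0.05 by limma, and none by the methods' t-test after adjustment). Markers of B lymphocytes, which can make OPG, were above background on no array by any probe for 4 of 5, as were those of T lymphocytes, which can make RANKL, for 4 of 6. The others were *Cd79b* and *Lck*, above background on 2 control and 3 PTH arrays each, and *Cd3e*, with a dimmer probe above it on 1 PTH array. The cartilage sum was 359 to 380 units in the controls and 251 to 283 with PTH. Of 3 tested cartilage markers, 1 was called lower (*Acan*), and 3 were lower and 0 higher at an unadjusted p below 0.05 (limma). None of 2 tested marrow stroma and fat markers and none of 5 endothelial markers was called (1 and 0 lower at an unadjusted p below 0.05 by limma). The part of cell make-up in the changes of *Tnfsf11* and *Tnfrsf11b* was not tested.

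Over 7 lists of genes around the RANKL system, the calls were few: 3 genes of the mature osteoclast, the costimulatory receptor *Oscar* and the cytokine *Il11* were higher, and *Fcer1g* and the PTH receptor gene *Pth1r* were lower. Values of list genes are those of the brightest probe unless another is named. Over these lists of pathway genes, 105 of 107 genes were on the array and 80 could be tested. Of these, 5 were called higher and 2 lower, or 8.75%, beside 1.73% of all genes. The lists were chosen with earlier results of these data known, so the shares of list genes may in part reflect that choice. In the methods' t-test 1 list gene was called (*Il11*). At an unadjusted p below 0.05 limma gave 19 higher and 8 lower, or 23.8% and 10.0% of the list genes tested, beside 7.51% and 7.39% of all genes. With the probe of smallest p for each gene in place of the brightest, 6 were higher and 3 lower, as *Sdc1* and *Cxcl12* were then called. With the replicate numbers as a block none of these 7 calls passed, with adjusted p-values of 0.0517 (*Pth1r*) to 0.105 (*Oscar*), and *Dcstamp* was called instead (adjusted p = 0.0446, limma).

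Of 28 genes for RANK signalling inside the cell, 24 were tested and none was called (7 higher and 0 lower at an unadjusted p below 0.05 by limma, 0 in the methods' t-test after adjustment). Their median log2 difference was 0.08, where the median of all genes was 0.01. *Traf6*, the main adaptor of RANK, had a log2 difference of 0.17 with an adjusted p of 0.726 (limma). Its other tested probes gave -0.26 and 0.24. The NF-kappaB subunits *Nfkb1* and *Rela* gave -0.13 and -0.02, and *Nfkb2* and *Relb* of the alternative pathway 0.27 and 0.29. The largest differences were in *Tnfaip3*, which encodes the NF-kappaB inhibitor A20, at 0.78, in the adaptor *Traf1* at 0.66 and in the kinase *Mapk8* (JNK1) at 0.60, with adjusted p-values of 0.218, 0.120 and 0.116 (limma). Another probe of *Traf1* gave 1.28 and another of *Mapk8* -0.20, and neither passed. The *Tnfaip3* probe was above background on 2 control and 3 PTH arrays.

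Among 15 tested genes of osteoclast precursors and costimulation, 1 was higher and 1 lower, and the median was -0.04. *Oscar*, an immunoglobulin-like receptor that costimulates osteoclast precursors, rose by a log2 difference of 1.05 (adjusted p = 0.0297, limma). *Fcer1g*, the signalling chain through which OSCAR acts, fell by 1.04 on the log2 scale (adjusted p = 0.0135, limma). *Nfatc1*, the transcription factor on which RANK signalling converges, gave -0.13, with its other tested probes at -0.32 to 0.46 and none called, and *Csf1r*, the M-CSF receptor of the precursors, -0.04. *Fos* gave 0.52 with an adjusted p of 0.0788, and *Trem2*, another costimulatory receptor, -0.64 with an adjusted p of 0.139 (limma).

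Of 13 genes of the mature osteoclast, 12 were on the array and 8 were tested, of which 3 were called higher and none lower, with a median of 0.57 (7 higher and 0 lower at an unadjusted p below 0.05 by limma, 0 in the methods' t-test after adjustment). *Car2*, the carbonic anhydrase that supplies protons for resorption, rose 2.58-fold (log2 1.37, SE 0.15, adjusted p = 0.00774, limma). *Acp5*, tartrate-resistant acid phosphatase, and the matrix protease *Mmp9* rose by 0.84 and 0.73 on the log2 scale (adjusted p = 0.0372 and 0.0433, limma). *Dcstamp*, listed on the array as Tm7sf4 and needed for fusion of precursors, gave 1.08 with an adjusted p of 0.0742, and *Ctsk*, the collagen-degrading cathepsin, 0.36 with an adjusted p of 0.328 (limma). *Calcr*, *Atp6v0d2* and *Ocstamp* were above background on no array, and *Itgb3* on 1 control array. *Acp5*, *Mmp9* and *Oscar* lost their call with any 1 array left out, with adjusted p-values up to 0.132, 0.158 and 0.106, and *Fcer1g* passed without 1 of the 6 arrays and *Car2* without each of the 6 (limma). *Car2* did not pass in the methods' t-test (adjusted p = 0.0731).

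**Figure D4:**
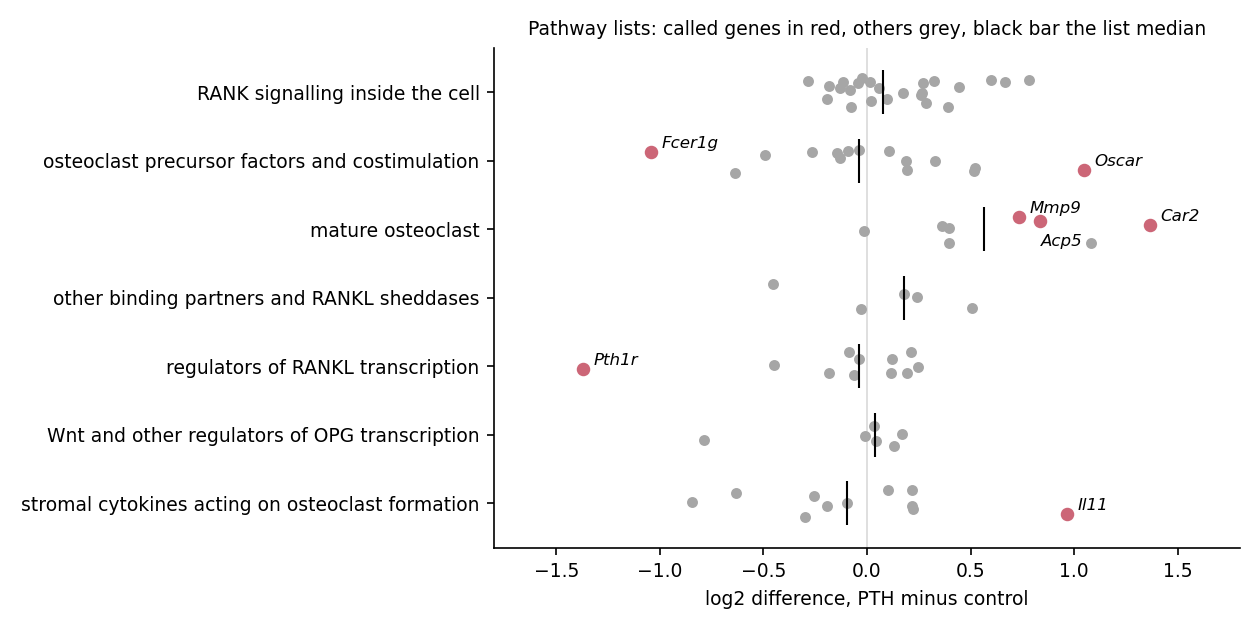
Log2 difference, PTH minus control, of each tested gene in 7 pathway lists (80 genes, 1 point each by its brightest probe, vertical spread within a list is only for legibility, black bars are list medians). Called genes are red and named: 5 higher (*Oscar*, *Car2*, *Acp5*, *Mmp9*, *Il11*) and 2 lower (*Fcer1g*, *Pth1r*). The lowest point of the Wnt list is a *Tcf7* probe that was not above background on the PTH arrays.

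On the stromal side, the signal of the PTH receptor was lower with PTH. Of 11 tested regulators of RANKL transcription 1 was lower, none was higher and the median was -0.04 (0 higher and 1 lower at an unadjusted p below 0.05 by limma). That gene was *Pth1r*, listed on the array as Pthr1, whose brightest probe was 2.59-fold lower (log2 difference -1.37, SE 0.15, adjusted p = 0.00693, limma). Its other probes gave -1.30, called, and -0.74, not called. In the methods' t-test the brightest probe had an adjusted p of 0.0657. The vitamin D receptor *Vdr* gave -0.09, with other probes at 0.23 and 0.46, and *Stat3*, which acts downstream of gp130, -0.04. The kinase genes *Sik2* and *Sik3* gave 0.25 and 0.21, *Crtc3*, a CREB coactivator, 0.20, and none of these passed. *Runx2*, *Crtc2*, *Cebpd* and *Nr3c1* were above background on no array.

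Among 6 tested Wnt genes and other regulators of OPG transcription none was called (0 higher and 1 lower at an unadjusted p below 0.05 by limma, 0 in the methods' t-test after adjustment), and the median was 0.04. *Ctnnb1* (beta-catenin) gave 0.17 and the Wnt target *Axin2* 0.04. Of *Tcf7*, a partner of beta-catenin, the brightest probe was above background on 3 control arrays and no PTH array and did not pass (adjusted p = 0.167, limma), and another, above background on 1 control and 2 PTH arrays, gave -0.05.

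Of 8 genes for other binding partners of OPG and RANKL and for RANKL sheddases, 5 were tested and none was called by its brightest probe (1 higher and 1 lower at an unadjusted p below 0.05 by limma, 0 in the methods' t-test after adjustment), with a median of 0.18. *Mmp14*, which sheds RANKL from the cell surface, gave 0.24, *Adam17* 0.18 and *Adam10* -0.03. *Tnfsf10* (TRAIL), the other ligand bound by OPG, and *Lgr4*, another RANKL receptor, were above background on no array. *Sdc1*, a heparan sulphate proteoglycan that binds OPG, gave 0.51 with an adjusted p of 0.154 by its brightest probe, while a dimmer probe, above background on all 6 arrays, was higher by 1.03 with an adjusted p of 0.0265 and would be called (limma).

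Of 11 tested cytokines and other stromal factors that act on osteoclast formation, 1 was higher and none lower, with a median of -0.10. *Il11*, a cytokine of the IL-6 family, rose 1.95-fold (log2 0.97, SE 0.12, adjusted p = 0.0123, limma) and was called without 1 of the 6 arrays and lost without each of the others. *Csf1*, which encodes M-CSF, gave -0.10, *Il6* 0.10 and *Tnf* -0.19. That *Tnf* probe was above background on 2 control and 2 PTH arrays, and another *Tnf* probe gave 0.27, not called. *Cxcl12*, the chemokine that holds haematopoietic cells in the marrow, gave -0.30 by its brightest probe without passing, and -0.78 and -0.70 by dimmer ones, of which the first passed (adjusted p = 0.0406 and 0.0680, limma). *Ccl2* and *Il1b* gave -0.85 and -0.63, with adjusted p-values of 0.175 and 0.132 (limma).

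The genes most like each member over the 6 arrays were found by the root mean square difference between log2 profiles, each centred on its own mean, among 9619 other genes above background on every array. For *Tnfsf11* these were *Gzme* (granzyme E) at 0.20, *Mst1r* at 0.22 and *Tm4sf1* at 0.25. *Gzme* and *Tm4sf1* were called higher, with log2 differences of 1.49 and 1.08, and *Mst1r* gave 1.07 without passing. For *Tnfrsf11b* the likeness was closer, with *Rgs16*, a regulator of G protein signalling, and *Nrn1* (neuritin) both at 0.11 and *Tg* (thyroglobulin, Tgn on the array) at 0.13. They were called lower, with log2 differences of -1.48, -1.46 and -1.48. For *Tnfrsf11a* they were *Pias3* at 0.05, *Napepld* at 0.06 and *Aste1* at 0.07 (Mbldc1 and 1100001A21Rik on the array), of which none was called. Since likeness was measured over the same 6 arrays, near equal differences between groups are part of how these genes were chosen.

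**Figure D5:**
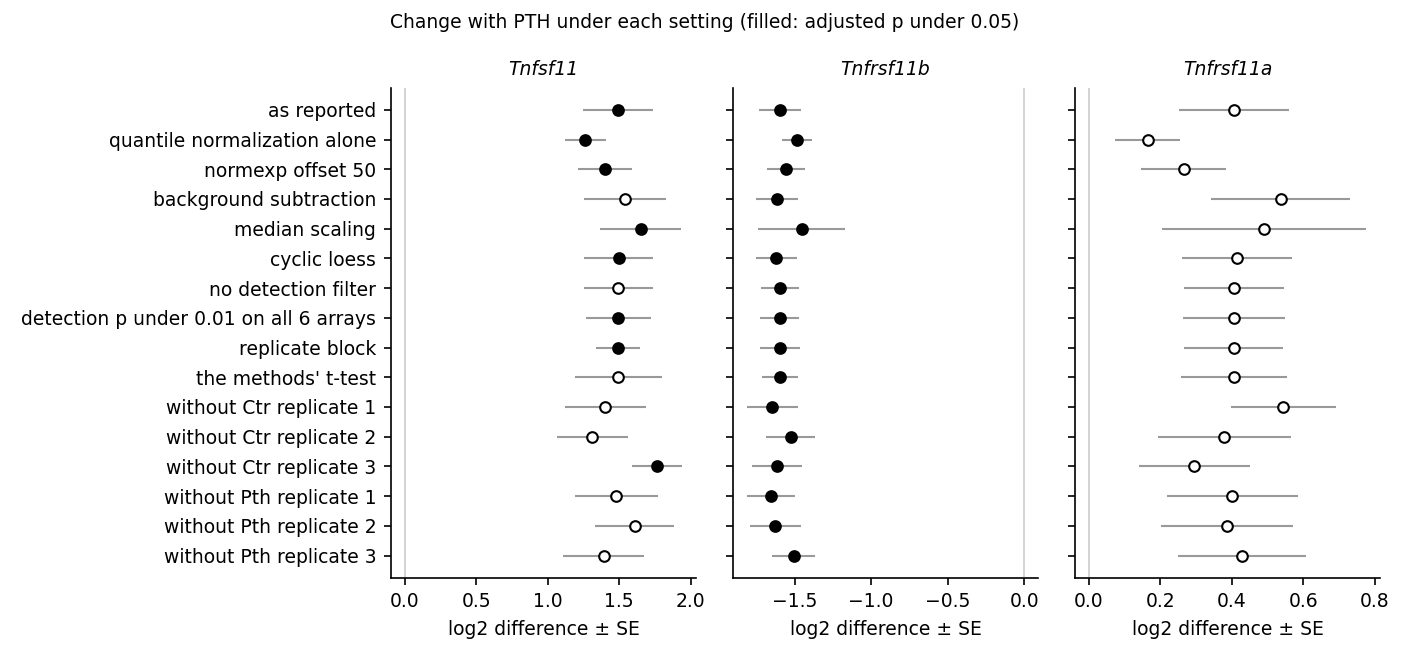
Log2 difference, PTH minus control, with its standard error, for each gene as reported, under 9 other settings and with each of the 6 arrays left out (filled points have an adjusted p below 0.05, open points do not). *Tnfsf11* stays between 1.26 and 1.77 and is open in 8 of these 15 alternatives, *Tnfrsf11b* stays between -1.65 and -1.45 and is filled throughout, and *Tnfrsf11a* stays between 0.16 and 0.54 and is open throughout.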

How the data were processed

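RNA of 3 control and 3 PTH preparations was hybridized to Illumina mouse bead arrays with 45281 probes. The authors deposited a table of linear probe signal intensity, neither normalized nor background-corrected, with a detection p-value for each probe and array, exported from GenomeStudio according to the submitters' processing notes. All per-sample columns were used. The study's methods name quantile normalization and differential scores in that software, which were not analysed here.

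From the deposited intensities, neqc (normexp correction with the background estimated from detection p-values, offset 16, quantile normalization) was run with limma 3.58.1 under R 4.3.3, on the log2 scale. The offset understates changes of dim probes. A probe was tested if its detection p was below 0.05 on at least 3 of 6 arrays, which 16214 probes of 11979 genes passed. The share of probes above background was 34.2% to 38.4% per array. The groups were compared with limma's lmFit and eBayes, two-sided, p-values being adjusted by Benjamini-Hochberg over every tested probe, and the ratio was compared by an exact permutation test. Genes were counted once, by their brightest probe. The script was tested on simulated data. The precision is limited by the number of arrays. The files and labels gave no slide or scan, so array batches were not examined.

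Named were all probes of the 3 genes, the called genes of the pathway lists with others whose role is described, and the 3 nearest profiles of each gene. The members and lists were chosen with earlier results of these data known. Older array symbols were matched through RefSeq synonyms, and 2 list symbols (*Siglec15*, *Tcf7l1*) had no match. Alternatives were other background corrections, normalizations and filters, a replicate block, a Student test named in the study's methods for other experiments, here called the methods' t-test, and leaving out each array.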

Additional observations from a re-analysis of the deposited data

How the results depend on the processing

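The directions of *Tnfsf11*, *Tnfrsf11b*, *Tnfrsf11a* and the ratio were the same under all alternatives run. *Tnfsf11* had log2 differences of 1.26 to 1.65 and missed the adjusted threshold with background subtraction (1.54, adjusted p = 0.114), with no detection filter (1.49, adjusted p = 0.0656) and in the methods' t-test (1.49, adjusted p = 0.179), all by limma but the last. With 1 array left out it ranged from 1.31 to 1.77. *Tnfrsf11b* passed in all 9 alternatives (-1.62 to -1.45, highest adjusted p = 0.0390) and *Tnfrsf11a* in none (0.16 to 0.54, lowest adjusted p = 0.168). With median scaling these genes all had the same standard error, 0.285, so calls in that setting did not weigh each gene's own spread. The log2 change of the ratio was 2.75 to 3.16. The cause of these shifts was not tested, except that no filter means more probes in the adjustment and a left-out array fewer samples.

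Of all genes, 82 were called higher and 125 lower. The higher count was 31 with background subtraction, 124 with detection p below 0.01 on all 6 arrays and 28 in the methods' t-test, and 19 to 34 with 1 array left out. The lower count was 77 with quantile normalization alone, 55 with background subtraction, 41 with median scaling, 40 in the methods' t-test, and 31 to 44 with 1 array left out. Of the pathway genes, 5 were higher and 2 lower. The higher count was 2 with background subtraction, 2 with no detection filter, 1 in the methods' t-test, and 1 to 2 with 1 array left out. The lower count was 1 with median scaling, 0 in the methods' t-test (7 lower at an unadjusted p below 0.05, and 8 by limma), and 1 to 2 with 1 array left out.

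Replicate numbers in the labels were only partly reflected in the arrays. Deviations from the group means were correlated across all tested probes between control and PTH arrays of the same number. The values were 0.067, 0.064 and 0.273 for numbers 1, 2 and 3. Control array 3 and PTH array 3 correlated at -0.14 to -0.13 with arrays of other numbers in the opposite group. Deviations within a group cancel, so these negative values largely follow from the 0.273 and are not separate evidence. Numbers 1 and 2 could not be told apart. Control array 1 with PTH array 2 gave 0.073, and control array 2 with PTH array 1 gave 0.070. With the replicate block, 19 genes were called higher and 25 lower, and of the pathway genes 1 was higher, *Dcstamp*, which is none of the 5 called without the block, and 0 lower (17 and 10 at an unadjusted p below 0.05, limma). With that block the adjusted p of *Tnfsf11* was 0.0438, of *Tnfrsf11b* 0.0236 and of *Tnfrsf11a* 0.252 (limma), and the log2 change of the ratio stayed at 3.09. Other probe pairs for the ratio were not run, since each gene had 1 probe.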
